A study of Mus musculus with 22 samples.

Results

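The homeostatic lymphoid chemokines and the lymphotoxins were examined in mouse lung 24 h after a single instillation of Mitsui7, a long and rigid multi-walled carbon nanotube (MWCNT). The group holds 9 genes: the chemokines Ccl19, Ccl20, Cxcl12 and Cxcl13, the receptors Ccr6, Ccr7 and Cxcr4, and the lymphotoxins Lta and Ltb. They were chosen by name, and 12 probes were assigned to them through the RefSeq accession that the array design gives each probe. They are 9 of 20018 genes named in this way on the array. The right lung of 22 female C57BL/6 mice, 8 weeks old, was used: 5 control mice received the vehicle (NaCl solution with BAL, an acellular lavage fluid), and 6, 5 and 6 mice received 18, 54 and 162 µg of Mitsui7 in the same vehicle. All mice were anaesthetised with Hypnorm and Dormicum for the instillation, and no genetic modification is given for any group. Whole lung RNA was labelled with Cy5 and hybridised against Cy3-labelled universal reference RNA from 11 mouse cell lines. The levels below are therefore log2 ratios of lung to this reference, so that 0 means equal signal, and the ratio of one gene cannot be set against that of another. In whole lung, fewer cells of a type and less RNA per cell cannot be told apart.

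Homeostatic chemokines place lymphocytes and dendritic cells in lymphoid tissue in the absence of infection. Ccl19 is a ligand of Ccr7, the receptor of naive T cells and migrating dendritic cells, Cxcl13 draws B cells through Cxcr5, Cxcl12 acts on Cxcr4 of leukocytes and progenitors, and Ccl20 is the ligand of Ccr6. Lymphotoxin alpha forms a soluble trimer that binds the tumour necrosis factor receptors, and with the membrane protein lymphotoxin beta it forms a complex that binds Ltbr on stromal cells. Signals from Ltbr through Map3k14, Nfkb2 and Relb are known to maintain Ccl19, Ccl21 and Cxcl13 in lymphoid stroma, and the same genes can be induced in lung where tertiary lymphoid tissue forms.

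The promoters of the 3 genes whose levels differed between the 162 and 18 µg groups are shown because they carry the main contrast of the data. Each window runs 5′ to 3′ on the strand of the gene, from 250 bases before the annotated transcription start to 50 bases after it, and was taken from RefSeq (build GRCm38.p6). Ccl19 lies on the minus strand (chr4:42756316-42756615), Cxcr4 on the minus strand (chr1:128592250-128592549) and Ltb on the plus strand (chr17:35194257-35194556). Capitals mark matches to GGANTTTCC, a kappa B like motif, or to the core promoter motif TATAAA, on either strand.
Ccl19: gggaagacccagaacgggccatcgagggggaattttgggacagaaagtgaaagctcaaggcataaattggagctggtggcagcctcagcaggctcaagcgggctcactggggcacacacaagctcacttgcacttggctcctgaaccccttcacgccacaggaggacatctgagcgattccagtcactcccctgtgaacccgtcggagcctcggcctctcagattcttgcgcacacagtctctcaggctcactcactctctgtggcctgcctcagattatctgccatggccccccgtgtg
Cxcr4: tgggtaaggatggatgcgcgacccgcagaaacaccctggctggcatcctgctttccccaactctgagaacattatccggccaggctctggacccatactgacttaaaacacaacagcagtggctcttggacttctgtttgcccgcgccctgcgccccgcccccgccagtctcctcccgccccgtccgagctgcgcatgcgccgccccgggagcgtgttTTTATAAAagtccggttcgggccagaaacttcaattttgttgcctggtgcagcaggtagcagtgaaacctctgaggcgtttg
Ltb: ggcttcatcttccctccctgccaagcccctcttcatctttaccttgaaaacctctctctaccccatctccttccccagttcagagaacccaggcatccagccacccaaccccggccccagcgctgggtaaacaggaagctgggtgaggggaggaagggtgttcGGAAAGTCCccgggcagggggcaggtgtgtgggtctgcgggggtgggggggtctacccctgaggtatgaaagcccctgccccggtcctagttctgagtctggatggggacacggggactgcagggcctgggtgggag
The Ccl19 window held neither motif. The Cxcr4 window held TATAAA on both strands in overlapping positions, from -32 to -25 relative to the start site. The Ltb window held 1 match to GGANTTTCC on the minus strand, from -87 to -79. Of 32851 promoter windows of the same length, 1.25% held GGANTTTCC and 13.6% held TATAAA on either strand. Among the 8 of the 9 genes with a window, GGANTTTCC was found for 1 (Ltb) and TATAAA for 3 (Cxcr4, Cxcl13 and Lta). The TATAAA match lay from -46 to -41 in Cxcl13 and from -167 to -162 in Lta, so the 3 matches do not share a position. These are matches of letters, not measured binding sites.

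A probe was counted as above background where its Cy5 signal exceeded a limit taken from negative control spots in 80% or more of the lungs of a group. A gene, represented by its brightest probe, was called where the limma adjusted p was at most 0.05, the change at least 1.5-fold and the probe above background. Of the 9 genes, 8 were above background and Ccl20 was not. None of the 8 was called at 18 µg, where 2.06% of all 16429 genes above background were called, and none at 54 µg, where 0.353% were called. No unadjusted limma p of the 8 genes was under 0.05 at either of these doses (count 0 in both), against 22.3% of all genes at 18 µg and 13.8% at 54 µg. At 162 µg 1 of the 8, Ccl19, was called higher, against 3.32% of all genes, and 0 were called lower, against 3.52% of all genes. The unadjusted limma p was under 0.05 for 7 of the 8 at this dose, against 28.8% of all genes. In the comparison of 162 with 18 µg, 1 of the 8 was called higher (Ccl19; 3.33% of all genes) and 2 were called lower (Cxcr4 and Ltb; 1.65% of all genes). The moderated F test over the 4 groups passed for 1 of the 8, Ccl19, and for 9.75% of all genes. The median difference of the 8 genes from the controls was 0.11, -0.12 and -0.33 on the log2 scale at 18, 54 and 162 µg, beside -0.02, -0.01 and -0.01 for all genes above background.

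**Figure D1:**
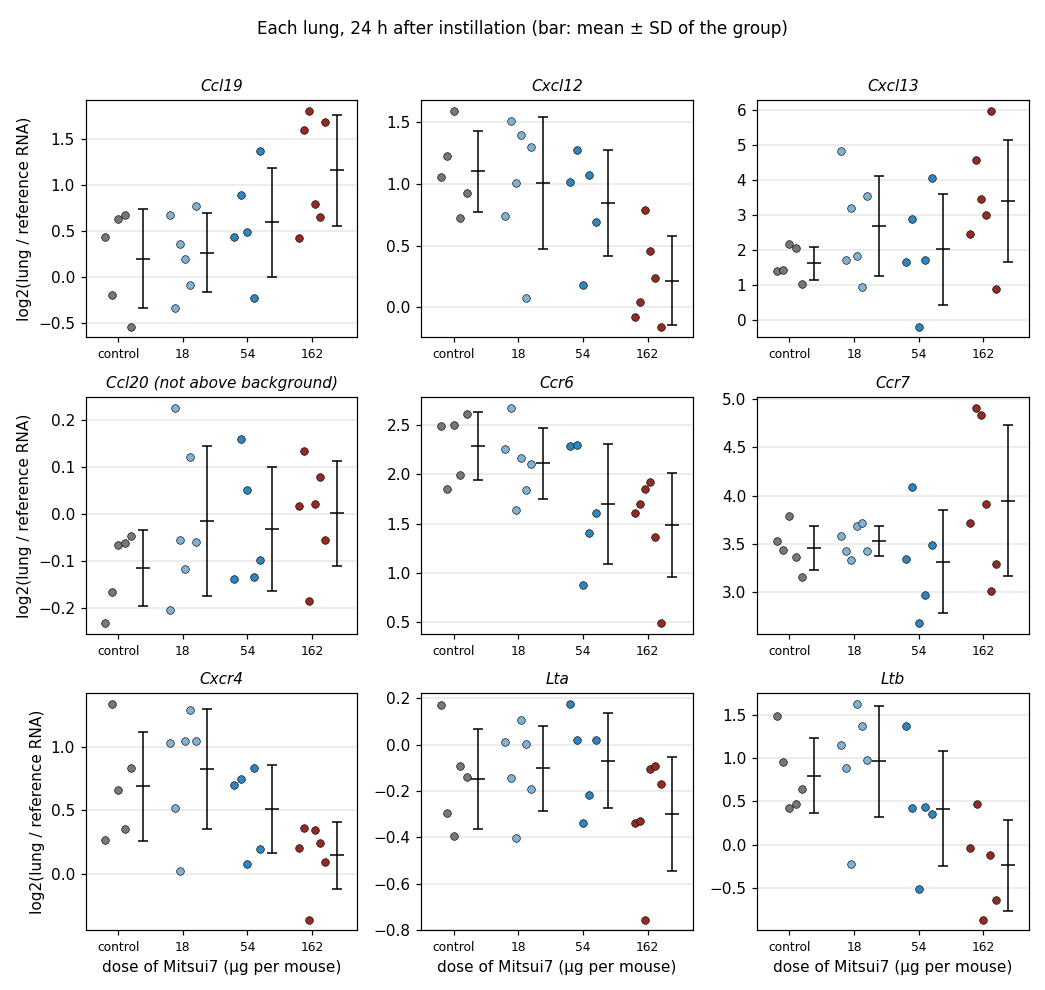
Level of each of the 9 genes in each lung (brightest probe, log2 ratio of lung to reference RNA on the y axis, own scale in each panel) by dose on the x axis; points are mice and bars the mean ± SD of a group. At 162 µg Ccl19 lies between 0.42 and 1.80 and Ltb between -0.87 and 0.47, whereas the 4 groups of Ccl20, which was not above background, lie between -0.23 and 0.23.

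Ccl19 was the only one of the 9 genes called against the controls. Its log2 ratio was 0.43, -0.20, 0.63, 0.68 and -0.54 in control mice 1 to 5 (mean 0.20 ± 0.54, SD, n = 5). The 18 µg mice ran from -0.34 to 0.77 with a median of 0.28 (mean 0.26 ± 0.43, n = 6). The 54 µg mice had 0.44, 0.90, 0.49, -0.22 and 1.37 (mean 0.60 ± 0.59, n = 5). The 162 µg mice ran from 0.42 to 1.80 with a median of 1.20 (mean 1.16 ± 0.60, n = 6). The groups overlapped, with 4 of 6 mice of the 162 µg group above every control. With slide as a term, the difference from the controls was 0.04 at 18 µg, 0.26 at 54 µg and 0.90 (SE 0.13, adjusted p = 9.3e-04) at 162 µg, which is a 1.86-fold change. The difference between 162 and 18 µg was 0.85 (SE 0.13, adjusted p = 0.0011).

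The call of Ccl19 rests on the comparison within slides. The 22 arrays lay on 7 slides of 3 or 4 arrays each, of which 2 held no control. On each of the 4 slides that held a control and a 162 µg mouse, the 162 µg mouse was higher, by 0.62 to 1.19. On each of the 5 slides that held an 18 and a 162 µg mouse, the 162 µg mouse was higher, by 0.59 to 1.44. Without the slide term the difference from the controls at 162 µg was 0.96, with an adjusted p of 0.0776, and was not called. Nor was it called with median centring in place of loess (0.65, adjusted p = 0.0984), with no normalization (0.63, adjusted p = 0.685) or with a block for the replicate number in place of slide (0.85, adjusted p = 0.111). The call against 18 µg was lost in 3 of 16 alternatives, without the slide term (0.90, adjusted p = 0.115), with the replicate block (0.90, adjusted p = 0.0806) and with no normalization (0.92, adjusted p = 0.239). The difference from the controls was called in each of the 22 fits that left out 1 array, with adjusted p between 4.1e-04 and 0.0061.

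The array carried 3 probes for Ccl19, which name the same transcript and were all well above background on every array. The second probe gave 1.11 ± 0.37 (SD, n = 5) in the controls and 1.93 ± 0.36 (n = 6) at 162 µg, a difference of 0.79 (SE 0.21, adjusted p = 0.036). The third gave 3.04 ± 0.59 and 4.37 ± 0.40, a difference of 1.29 (2.45-fold, SE 0.20, adjusted p = 0.0012), with 5 of 6 mice above every control. The first probe is the brightest over both channels. In the lung channel alone (Cy5) the third was brighter in the controls, at 278 to 936 against 187 to 505 for the first. All 3 probes were called at 162 µg against the controls, and all 3 against 18 µg, by 0.85, 0.84 and 1.28. At 54 µg the differences of the 3 probes from the controls were 0.26, 0.57 and 0.72, none of which was called. Mouse chromosome 4 is annotated with pseudogenes of Ccl19 and with copies of the neighbouring Ccl21 genes, so signal from a near-identical copy cannot be told apart from that of Ccl19 on these probes.

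**Figure D2:**
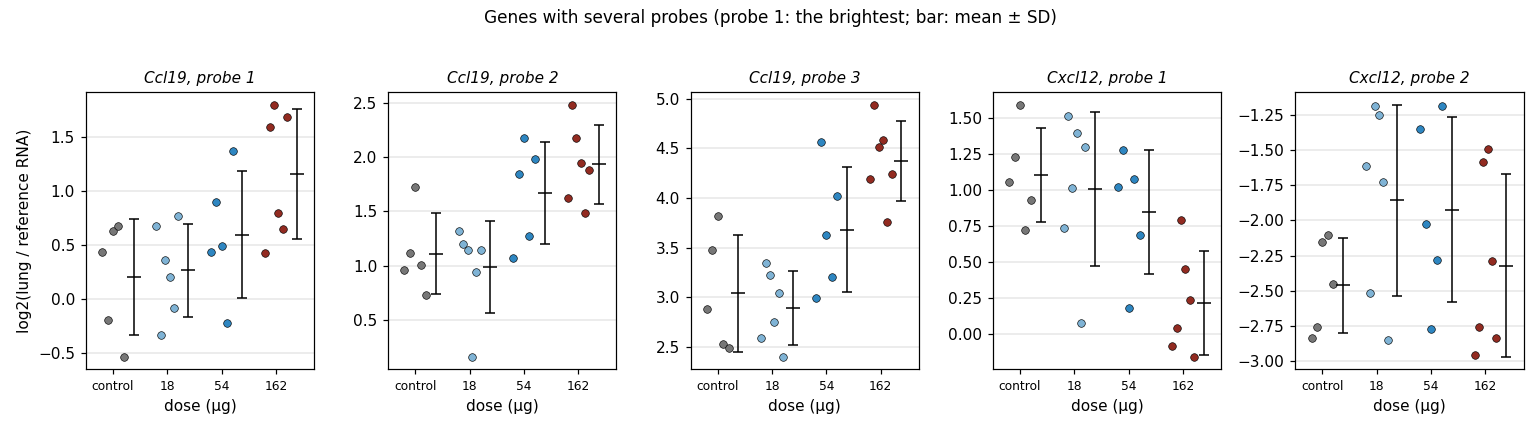
Log2 ratio of lung to reference RNA (y axis) by dose (x axis) on each probe of the 2 genes with several probes, Ccl19 and Cxcl12; points are mice and bars the mean ± SD. The 162 µg mean is above the control mean on all 3 Ccl19 probes, whereas for Cxcl12 it is below it on probe 1 (0.22 against 1.10) and not on probe 2 (-2.32 against -2.46).

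Ccr7, the receptor of Ccl19, was not called at any dose. Its log2 ratio ran from 3.16 to 3.79 in the controls (mean 3.45 ± 0.23, n = 5) and was as narrow in the 18 µg mice, from 3.33 to 3.71 (3.53 ± 0.15, n = 6). The 54 µg mice ran from 2.67 to 4.09 (3.31 ± 0.54, n = 5) and the 162 µg mice from 3.01 to 4.91 (3.95 ± 0.79, n = 6). The spread at 162 µg was wider than in the other groups, with 3 mice above every control and 1 below. The difference at 162 µg was 0.59 (95% interval 0.10 to 1.09, adjusted p = 0.175), and 0.35 without mouse 3 of the 162 µg group.

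Cxcl13, the B cell chemokine, had the widest spread of the 8 genes in the treated groups. Its log2 ratio was 1.40, 1.43, 2.16, 2.05 and 1.01 in the controls (mean 1.61 ± 0.48, n = 5). The 18 µg mice ran from 0.95 to 4.83 with a median of 2.50 (2.67 ± 1.44, n = 6), and the 54 µg mice had 1.64, 2.87, -0.20, 1.70 and 4.06 (2.01 ± 1.59, n = 5). The Cy5 signal behind the value of -0.20 (59.0) was below the background limit, so the SD at 54 µg rests in part on a value at the floor. The 162 µg mice ran from 0.89 to 5.97 with a median of 3.22 (3.39 ± 1.75, n = 6). At 162 µg 5 of 6 mice were above every control and 1, mouse 6, was below every control. The array of this mouse was the least like the other arrays (median Pearson r 0.83), with 53.5% of probes above the background limit. The fitted difference at 162 µg was 2.10 (95% interval 0.41 to 3.79, adjusted p = 0.154), which did not pass the test. On the 4 slides with a control, the 162 µg mouse was higher by 1.04 to 4.96. At 18 µg the difference was 1.44 (95% interval -0.24 to 3.13, adjusted p = 0.426). The value at 162 µg depended on the arrays used: it was 2.64 (adjusted p = 0.0221) without the 2 slides that held no control, and 1.33 without mouse 5 of the 162 µg group, the highest of all 22.

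Cxcl12, the ligand of Cxcr4, was measured by 2 probes that name different transcript variants. On the brighter one, the log2 ratio was 1.05, 1.23, 1.59, 0.72 and 0.93 in the controls (mean 1.10 ± 0.33, n = 5). The 18 µg mice ran from 0.08 to 1.51 (1.01 ± 0.53, n = 6) and the 54 µg mice from 0.18 to 1.28 (0.85 ± 0.43, n = 5), whereas the 162 µg mice ran from -0.16 to 0.79 (0.22 ± 0.36, n = 6). At 162 µg 5 of 6 mice were below every control. The difference was -0.87 (95% interval -1.43 to -0.32, adjusted p = 0.0617), which did not pass the threshold. It passed with the same direction in the deposited log2 table (-0.89, adjusted p = 0.0349) and without the slide term (-0.89, adjusted p = 0.0347). The other probe gave 0.18 (95% interval -0.50 to 0.86, adjusted p = 0.865) at 162 µg and 0.60 at 18 µg (adjusted p = 0.403). The 2 probes thus differed in sign at 162 µg, but their intervals overlapped and the difference between them was not tested. Between 162 and 18 µg both were lower, by -0.84 (adjusted p = 0.0646) and -0.42 (adjusted p = 0.561), and neither was called.

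Cxcr4, the receptor of Cxcl12, was lower at 162 µg than at 18 µg. Its log2 ratio was 0.27, 1.33, 0.66, 0.35 and 0.84 in the controls (mean 0.69 ± 0.43, n = 5). The 18 µg mice ran from 0.02 to 1.29 with a median of 1.04 (0.82 ± 0.47, n = 6), and the 54 µg mice had 0.70, 0.75, 0.08, 0.83 and 0.20 (0.51 ± 0.35, n = 5). The 162 µg mice ran from -0.36 to 0.36 with a median of 0.22 (0.15 ± 0.26, n = 6). The difference between 162 and 18 µg was -0.70 (SE 0.18, adjusted p = 0.0312) and was called, with the 162 µg mouse lower on 5 of 5 slides. Against the controls the difference at 162 µg was -0.54 (SE 0.19, adjusted p = 0.114), with 4 of 6 mice below every control. The call against 18 µg was kept in 13 of 22 fits that left out 1 array, with adjusted p between 0.0125 and 0.0916, and was lost without 18 µg mouse 1, 4, 5 or 6 or 162 µg mouse 1, 2, 3, 5 or 6. It was also lost in 7 of 16 alternatives: without the slide term (-0.68, adjusted p = 0.0904), with median centring (-0.56, adjusted p = 0.509) or no normalization (-0.42, adjusted p = 0.928), with normexp background correction (-0.61, adjusted p = 0.0530), in the deposited log2 table (-0.61, adjusted p = 0.0725), without the 2 slides that held no control (-0.64, adjusted p = 0.111) and without slide G, which held 1 mouse of each group (-0.63, adjusted p = 0.172).

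**Figure D3:**
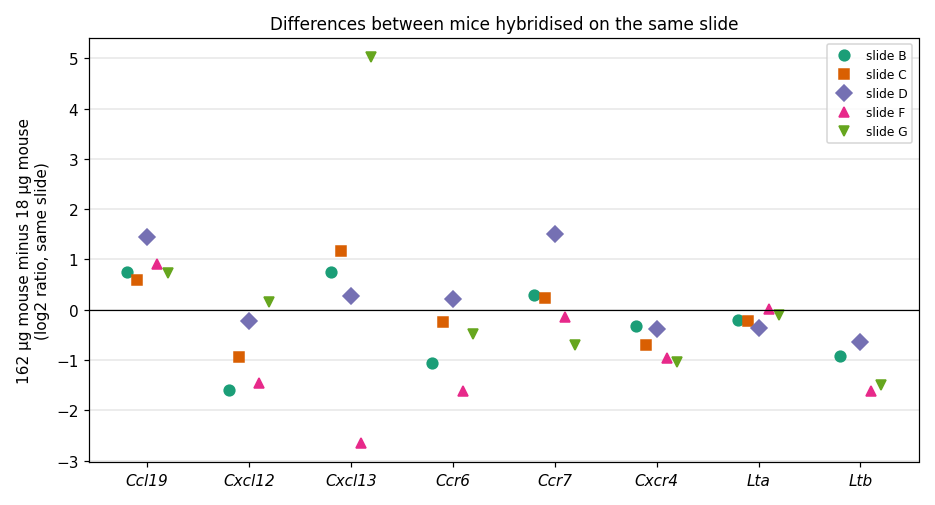
Difference in log2 ratio between the 162 µg and the 18 µg mouse on the same slide (y axis) for the 8 genes above background (x axis); each symbol is 1 of 5 slides. Ccl19 is above 0 on 5 of 5 slides, Cxcr4 below 0 on 5 of 5 and Ltb below 0 on the 4 slides with a value.

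Ltb, the membrane-bound lymphotoxin, showed the largest difference between the 162 and 18 µg groups among the 8 genes, in either direction. Its log2 ratio was 1.48, 0.96, 0.43, 0.47 and 0.65 in the controls (mean 0.80 ± 0.44, n = 5). The 18 µg mice ran from -0.22 to 1.63 with a median of 1.07 (0.97 ± 0.64, n = 6), and the 54 µg mice had 1.37, 0.43, -0.51, 0.43 and 0.35 (0.41 ± 0.67, n = 5). The 162 µg mice had -0.04, 0.47, -0.87, -0.12 and -0.64 (-0.24 ± 0.53, n = 5), and the spot of mouse 4 was marked as an outlier by the scanner software and left out of the fit. The difference between 162 and 18 µg was -1.11 (SE 0.27, adjusted p = 0.0276), with the 162 µg mouse lower on 4 of 4 slides (differences of -1.62 to -0.64). Against the controls it was -0.87 (SE 0.28, adjusted p = 0.0761), with 4 of 5 mice below every control. The call against 18 µg was kept in 15 of 22 fits that left out 1 array and lost without 18 µg mouse 2, 5 or 6 or 162 µg mouse 1, 3, 5 or 6, with adjusted p up to 0.0824. It was also lost in 4 of 16 alternatives: with median centring (-0.97, adjusted p = 0.678), with no normalization (-0.93, adjusted p = 0.928), without the 2 slides that held no control (-0.78, adjusted p = 0.0781) and without slide G (-1.01, adjusted p = 0.170).

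Lta, the soluble lymphotoxin, gave no detectable difference. Its log2 ratio ran from -0.39 to 0.17 in the controls (mean -0.15 ± 0.22, n = 5) and from -0.76 to -0.09 at 162 µg (-0.30 ± 0.25, n = 6), and the difference was -0.13 (95% interval -0.39 to 0.13, adjusted p = 0.675). The probe was dim: the scanner software marked it well above background in 3 of 5 control, 3 of 6, 3 of 5 and 2 of 6 treated lungs in order of dose, which limits what change could be seen.

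Ccr6, a receptor of B cells and of some T cells, was 2.29 ± 0.34 in the controls (SD, n = 5), 2.11 ± 0.36 at 18 µg (n = 6), 1.70 ± 0.61 at 54 µg (n = 5) and 1.49 ± 0.53 at 162 µg (n = 6). The difference at 162 µg was -0.64 (95% interval -1.18 to -0.09, adjusted p = 0.193), with 4 of 6 mice below every control. Its ligand Ccl20 was above the background limit on 0 of 22 arrays, with Cy5 signals of 62.0 to 82.0, and no fold change can be given for it.

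**Figure D4:**
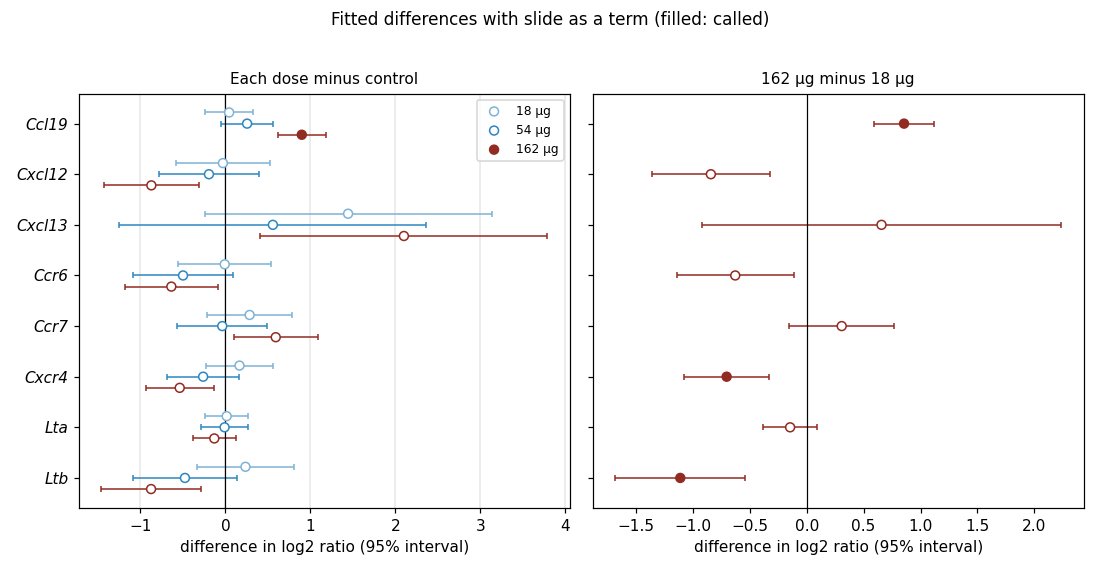
Fitted difference in log2 ratio (x axis, with 95% interval) of the 8 genes above background (y axis), for each dose against the controls on the left and for 162 against 18 µg on the right; filled points were called. Ccl19 at 162 µg (0.90) is filled on the left, and Ccl19 (0.85), Cxcr4 (-0.70) and Ltb (-1.11) are filled on the right.

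On the brightest probe, the group means of Ccl19 rose from the controls through 18 and 54 to 162 µg (0.20, 0.26, 0.60 and 1.16). Those of Cxcl12 and Ccr6 had the opposite order on their brightest probe. On the other Ccl19 probes the 18 µg mean was below the control mean (0.99 against 1.11, and 2.89 against 3.04). The other Cxcl12 probe had no such order, with means of -2.46, -1.86, -1.92 and -2.32 from the controls to 162 µg. For Ltb and Cxcr4 the 18 µg mean was the highest and the 162 µg mean the lowest. By the brightest probe, neighbouring doses were not distinguished for any of the 8 genes. The lowest limma adjusted p on these probes was 0.426 for 18 µg against the controls. It was 0.403 for 54 against 18 µg and 0.198 for 162 against 54 µg.

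Across arrays the members formed pairs, given here as a description over 22 lungs that share doses, slides and a reference. Of 28 pairs among the 8 genes, Cxcr4 and Ltb had the highest Pearson r (0.77 over 21 arrays, and 0.62 after group means were removed), followed by Lta and Ltb (0.73 and 0.72) and by Cxcl12 and Ccr6 (0.71 and 0.58). Lta and Ltb are neighbours on chromosome 17, but the Lta probe was dim, so the r of this pair rests in part on values near the floor. Ccl19 and Cxcr4 had the lowest r (-0.59, and -0.36 after group means were removed).

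The genes most like each member were taken as the 3 with the highest Pearson r over the arrays among all genes above background. Choosing the highest of 16429 genes over so few arrays gives a high r by selection alone. No chance level was computed, so these genes are a description only. For Ltb they were Arhgap4 (r = 0.91, Spearman rho = 0.92, 21 arrays), Prkcb (0.91 and 0.90) and Plxnd1 (0.91 and 0.88). For Ccr6 they were Bank1, a B cell scaffold protein (r = 0.90, rho = 0.87, 22 arrays), Lrrc1 (0.87 and 0.85) and Sema4f (0.86 and 0.84). For Cxcr4 they were Ptpro, Sash3 and Abcg1, with r between 0.82 and 0.84. For Cxcl13 they were Vsig4, a complement receptor of macrophages (r = 0.84, rho = 0.88), Mpp6 and Etfb. Ccl19 was most like Taf3 (r = 0.82 over 21 arrays), Slc20a2 and Acd, Cxcl12 like H3c15, Adam18 and Isoc2b, Ccr7 like AI182371, Bms1 and Pla2g4f, and Lta like Emg1, Pdzd4 and Urb2, all with r between 0.77 and 0.86.

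Of 39 other genes of the 2 systems, 38 were on the array and 35 were above background. None was called by limma at 18 or 54 µg, where the unadjusted p was under 0.05 for 10 and 9 of the 35 (22.3% and 13.8% of all genes). At 162 µg against the controls 2 were called higher (3.32% of all genes) and 0 lower (3.52% of all genes), with a median difference of 0.17. The unadjusted p was under 0.05 for 18 of the 35 (28.8% of all genes). Both called genes belong to the 21 genes of the lymphotoxin signalling list and 0 to the 14 of the chemokine list. These counts are by the brightest probe. Another probe of the chemokine Ccl27a was called lower (-0.67, adjusted p = 0.0233), whereas a further one gave 0.47 (adjusted p = 0.150). Birc3, an inhibitor of apoptosis that controls Map3k14, went from 0.50 ± 0.28 (SD, n = 5) in the controls to 1.34 ± 0.39 (n = 6), a difference of 0.90 (SE 0.15, adjusted p = 0.0018). Icam1, an adhesion molecule, went from 2.68 ± 0.64 to 3.63 ± 0.45, a difference of 0.91 (SE 0.24, adjusted p = 0.0322). In both, 5 of 6 mice were above every control. Birc3 was not called in the deposited log2 table, with median centring or with no normalization, and was called in all 22 fits that left out 1 array. Icam1 was not called with normexp, median centring or no normalization, without the slide term, without slide G or without the 2 slides that held no control, and it lost its call in 4 of the 22 fits, without control mouse 3, 4 or 5 or 162 µg mouse 3.

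In the comparison of 162 with 18 µg, 1 of these 35 genes was called higher (3.33% of all genes) and 3 lower (1.65% of all genes). The unadjusted p was under 0.05 for 16 (26.5% of all genes). The higher one was Tnfrsf1a, a receptor of tumour necrosis factor and of soluble lymphotoxin (0.63, SE 0.13, adjusted p = 0.0098), and its second probe gave 0.42 (adjusted p = 0.0878). Ltbr, the receptor of the lymphotoxin complex, had the lowest adjusted p of the 35 in this comparison (0.55, SE 0.10, adjusted p = 0.0059) but stayed below the 1.5-fold minimum and was not called. Cxcr5, the receptor of Cxcl13 on B cells, differed by -0.99 (SE 0.21, adjusted p = 0.0121). Tnfrsf13c, the B cell receptor for the survival factor BAFF, differed by -0.83 (SE 0.21, adjusted p = 0.0307), although a second probe gave 0.02 (adjusted p = 0.955). Vcam1, an adhesion molecule of endothelium and stroma, differed by -0.95 (SE 0.19, adjusted p = 0.0096), and its second probe gave -0.27 (adjusted p = 0.408).

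Other genes of the receptor side did not pass the test at 162 µg against the controls. Ltbr differed by 0.36 (adjusted p = 0.0659), Nfkb2 by 0.42 (adjusted p = 0.232), Relb by 0.35 (adjusted p = 0.0940) and Tnfsf14, a second ligand of Ltbr, by 0.23 (adjusted p = 0.841). The scavenging receptors Ackr3, which takes up Cxcl12, and Ackr4, which takes up Ccl19 and Ccl21, differed by 0.64 (adjusted p = 0.0740) and -0.65 (adjusted p = 0.0898). The other Ccr7 ligands, Ccl21a and Ccl21b, differed by -0.36 (adjusted p = 0.342) and -0.69 (adjusted p = 0.0752). Ccl28, Tnfsf11 and Glycam1 were not above background. The moderated F test over the 4 groups passed for Ltbr (adjusted p = 0.0174) and Relb (adjusted p = 0.0289). Among the system genes it also passed for Birc3, Tnfrsf1a, Vcam1, Cxcr5 and the chemokine receptor Ccr9. It did not pass for the rest, among them Nfkb2 (adjusted p = 0.167) and Icam1 (adjusted p = 0.110). Of all genes, 9.75% passed.

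Lists of cell type markers were set beside these results. All 7 markers of lung epithelium were above background. Of 7 B cell markers, all above background, 0 had a positive difference from the controls at 162 µg (48.8% of all genes). Called lower were 2 (3.52% of all genes), Ms4a1 (-0.89, adjusted p = 0.0126) and Cr2 (-1.02, adjusted p = 0.0049). In each, 6 of 6 mice were below every control, as they were for 4.49% of all genes. Against 18 µg 3 were called lower (1.65% of all genes), these and Cd79b (-1.02, adjusted p = 0.0140). Averaged over the list, the B cell level ran from 0.51 to 1.09 in control lungs, from 0.71 to 1.30 in 18 µg lungs, from 0.0070 to 0.92 in 54 µg lungs and from -0.11 to 0.62 in 162 µg lungs. Over the arrays, Pearson r with this level was 0.81 for Ltb (0.65 after group means were removed), 0.72 for Ccr6 (0.61), 0.63 for Cxcr4 (0.34) and -0.32 for Ccl19 (0.24). For the other members it was 0.56 for Cxcl12 (0.22), 0.42 for Lta (0.34), 0.11 for Ccr7 (0.56) and 0.05 for Cxcl13 (0.39). The part of B cell number in the values of these genes was not tested.

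**Figure D5:**
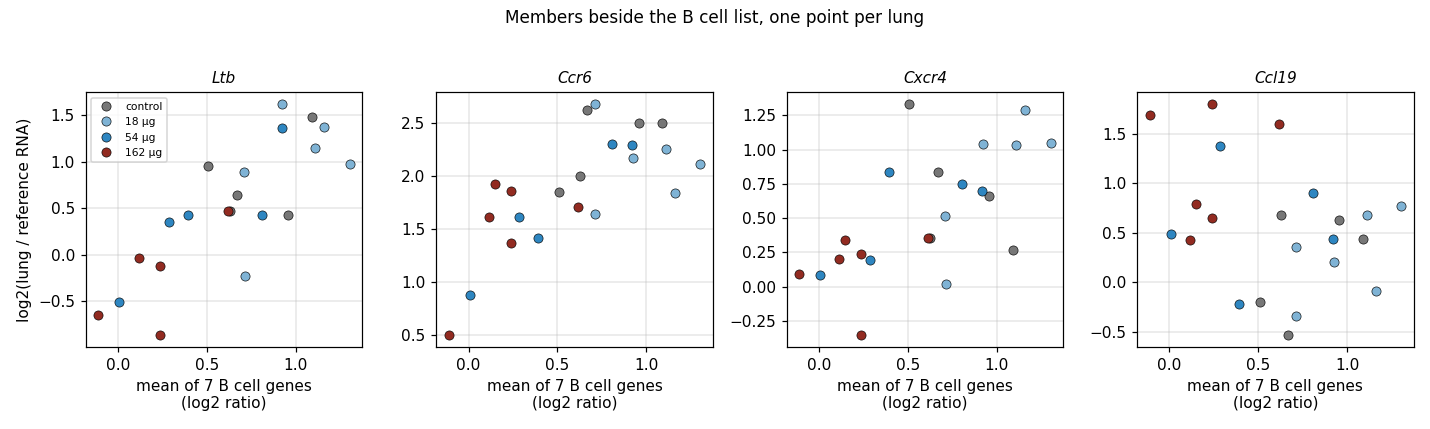
Log2 ratio of Ltb, Ccr6, Cxcr4 and Ccl19 in each lung (y axis) against the mean log2 ratio of 7 B cell genes in the same lung (x axis); colours mark the dose. Ltb and Ccr6 are low in the lungs with a low B cell level (Pearson r 0.81 and 0.72), whereas Ccl19 is not (-0.32).

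Of 8 T cell markers, 1 was called lower at 162 µg (Lck, -0.83, adjusted p = 0.0047) and 0 higher, against 3.52% and 3.32% of all genes. Of 5 markers of lymphatic endothelium, Prox1 was not above background, the other 4 had positive differences at 162 µg and 1, Pdpn, was called (1.04, adjusted p = 0.0067). Pdpn is also found on fibroblastic stroma and on type I alveolar epithelium. The mean level of this list ran from 2.15 to 3.05 in the controls and from 3.05 to 4.00 at 162 µg, and its part in the value of Ccl19 was not tested. Of 6 markers of alveolar macrophages, Marco was called higher (1.51, adjusted p = 0.0046) and Abcg1 lower (-0.60, adjusted p = 0.0104) at 162 µg. The lists of neutrophils, eosinophils, dendritic cells, blood endothelium and fibroblasts held 31 genes above background. Of these, 0 were called by limma against the controls at this dose, against 6.84% of all genes. An unadjusted limma p under 0.05 was found for 10 of the 31, against 28.8% of all genes. Of the 8 neutrophil markers, 7 had a positive difference from the controls (median 0.66) and 8 had a positive difference from the 18 µg group (median 0.67), and the mean level of this list ran from 2.03 to 2.43 at 18 µg and from 1.89 to 4.34 at 162 µg.

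Between 162 and 18 µg, the comparison in which Cxcr4 and Ltb were called, markers of other cell types were called as well. Lower were the T cell kinase gene Lck (-0.76, adjusted p = 0.0064), Cd209a (-1.44, adjusted p = 0.0109) and Itgax (-0.64, adjusted p = 0.0466) of dendritic cells, Abcg1 (-0.83, adjusted p = 9.4e-04) of alveolar macrophages and Kdr (-0.59, adjusted p = 0.0285) of blood endothelium. Higher were Mmrn1 of lymphatic endothelium (1.04, adjusted p = 0.0135) and Pdgfra of fibroblasts (0.91, adjusted p = 0.0229). Over all genes, 1.65% were called lower and 3.33% higher. Of the markers above background, a positive difference was found for 3 of 6 of dendritic cells (median 0.05) and 3 of 6 of fibroblasts (median 0.14). It was found for 2 of 6 of blood endothelium (median -0.07) and 2 of 6 of alveolar macrophages (median -0.19). For T cells it was 1 of 8, for eosinophils 0 of 5 (median -0.41) and for lymphatic endothelium 4 of 4. The mean level of the eosinophil list ran from 0.23 to 0.54 in the controls. It ran from 0.62 to 1.00 at 18 µg and from 0.18 to 0.77 at 162 µg. The part of these cell types in the values of Ccl19, Cxcr4 and Ltb was not tested.

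Some arrays stood apart. In control lungs 70.4% to 77.5% of the probes exceeded the background limit, and in treated lungs 50.3% to 83.5%. On the 2 slides that held no control, C and F, it was 50.3% to 70.1%, and on slide G 61.6% to 70.4%. The median Pearson r with the other arrays was lowest for 162 µg mouse 6 and 18 µg mouse 4 (both 0.83). For control mouse 2 it was 0.92. The Cxcl12 (-0.16), Ccr6 (0.49) and B cell list (-0.11) levels of 162 µg mouse 6 were the lowest of the 22 lungs. Control mouse 2 had a mean level of the neutrophil list of 4.32, whereas the other controls ran from 1.63 to 2.19. Without this mouse the difference of Ccl19 at 162 µg was 0.96 (adjusted p = 0.0019), that of Ltb was -0.82 and that of Cxcr4 was -0.33 (adjusted p = 0.358), which is more than 1.5 times smaller than with it. The Cxcr4 level of this mouse, 1.33, was the highest of the 22 lungs.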

How the data were processed

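Lung RNA (Cy5) and universal mouse reference RNA (Cy3) were hybridised to 22 two-colour Agilent arrays, on which the number of arrays limits the precision. The authors deposited median spot intensity values for both channels, which the headers of the files credit to Feature Extraction 10.7.3.1 and from which no background was subtracted here, and a table of normalized log2 ratios whose normalization is not given in the sources used here. Against the values computed here that table correlated at r = 0.83 to 1.00 per array, with column medians of -0.05 to -0.02.

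Outlier spots were removed, log2(Cy5/Cy3) was normalized by loess (span 0.3), and replicate spots of 55681 probes were joined by their median. The background limit was the 5% trimmed mean plus 3 trimmed SD of 308 negative control spots. Through RefSeq accessions 26413 probes were named, for 20018 genes. limma 3.58.1 (R 4.3.3) was fitted with dose and slide as fixed effects (12 residual degrees of freedom), p was adjusted over all probes by Benjamini-Hochberg, and the fit was tested on simulated data. A gene was represented by its brightest probe, the one with the highest mean log2 intensity over both channels and all arrays.

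Every member was named on every probe. Named besides were 7 fixed genes of the system (Cxcr5, Ackr3, Ackr4, Ltbr, Tnfsf14, Nfkb2, Relb), each system gene that was called or passed the F test, the 3 genes most like each member, and up to 3 called genes a marker list. A B cell marker is not reported here and was left out of its list. Members and lists were chosen with earlier results of these data known. Alternatives were other background corrections, normalizations, slide terms, filters and probe rules, the deposited table, and leaving out arrays.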

Additional observations from a re-analysis of the deposited data

Results flagged for a closer look

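In 2 of 32 groups of member values, 1 mouse lay apart from the others of its group by Dixon's gap ratio, where chance alone gives about 1 in 20. Both values come from mouse 3 of the 162 µg group. Its Cxcr4 log2 ratio was -0.36, whereas the nearest of the other 5 mice was at 0.10. Its Lta log2 ratio was -0.76, whereas the nearest was at -0.34. Its Ltb value, -0.87, was also the lowest of its group. Without this mouse the difference of Cxcr4 between 162 and 18 µg was no longer called, whereas Lta was not called with or without it.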

How the results depend on the processing

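The 4 called differences of the 9 genes (Ccl19 at 162 µg, and Ccl19, Cxcr4 and Ltb between 162 and 18 µg) kept their direction in every alternative run, though not always the call. The number of the 9 genes called at 162 µg, 1 in the values reported, was 0 with median centring and with no normalization, 2 with slide as a random block (Ccl19 and Cxcl12), 3 in the deposited log2 table (Ccl19, Cxcl12 and Ltb), 3 with only the 2 groups compared (Ccl19, Cxcl13 and Cxcr4) and 4 with slides C and F left out (Ccl19, Cxcl12, Cxcl13 and Ltb). Leaving out these slides, which hold no control, or slide G, whose arrays were among the least like the deposited table, was chosen after seeing the data. The number differing between 162 and 18 µg, 3 in the values reported, was 1 with median centring, without the slide term and with slides C and F left out, and 0 with no normalization. The number passing the F test was 0 with median centring, with no normalization and without the slide term, 2 with the mean over the probes of a gene, and 3 in the deposited table and with slide as a random block. The number of system genes called at 162 µg, 2 in the values reported, was 1 with normexp, median centring, the deposited table, no slide term or slide G left out, 0 with no normalization, 4 with only the 2 groups compared, 5 with slides C and F left out and 7 with the Cy5 channel alone. When 1 array was left out, these counts ran from 1 to 3 at 162 µg, from 1 to 4 between 162 and 18 µg, from 1 to 3 in the F test and from 1 to 4 for the system genes. The counts of 0 at 18 and 54 µg did not move in any fit. Between-array Aquantile normalization leaves the ratios unchanged by construction.

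Median centring moved the median difference of all genes by -0.24 at 18 µg and -0.18 at 162 µg, no normalization by -0.40, 0.14 and -0.20 at 18, 54 and 162 µg and by 0.175 between 162 and 18 µg, and the Cy5 channel alone by 0.10 at 18 µg, so the values under these settings are relative to those shifts. The sign changed only for differences that were not called. At 18 µg it changed for Ccl19 with median centring (-0.13), no normalization (-0.29), the deposited table (-0.095), the replicate block (-0.040) and slide G left out (-0.058). For Cxcr4 it changed with median centring (-0.073) and no normalization (-0.24), and for Ccr7 with no normalization (-0.15). For Ltb it changed with median centring (-0.19), no normalization (-0.32), only the 2 groups compared (-0.093) and slides C and F left out (-0.0012). For Lta it changed with no normalization (-0.14), the deposited table (-0.046), only the 2 groups compared (-0.043) and slide G left out (-0.016). For Ccr6 it changed with normexp (0.019), the Cy5 channel alone (0.018), the deposited table (0.017) and slide G left out (0.20). For Cxcl12 it changed with the deposited table (0.070), the mean over probes (0.29) and slide G left out (0.15). At 54 µg it changed for Lta with median centring (0.0096), no normalization (0.17), no slide term (0.081), the random block (0.044), the replicate block (0.081), only the 2 groups compared (0.11), slides C and F left out (0.053) and slide G left out (0.011). It changed at 54 µg for Ccr7 with no normalization (0.10) and slide G left out (0.0075), for Cxcr4 with only the 2 groups compared (0.17), and for Cxcl12 with the mean over probes (0.19) and slides C and F left out (0.11). At 162 µg it changed for Lta with the Cy5 channel alone (0.034). Between 162 and 18 µg it changed for Cxcl13 with slide G left out (-0.28). With 1 array left out, the difference at 18 µg ran from -0.034 to 0.16 for Ccl19, -0.20 to 0.20 for Cxcl12, -0.17 to 0.19 for Ccr6, -0.0093 to 0.38 for Cxcr4 and -0.045 to 0.13 for Lta, the difference at 54 µg from -0.36 to 0.0022 for Cxcl12, -0.038 to 0.95 for Cxcl13, -0.17 to 0.090 for Ccr7 and -0.11 to 0.074 for Lta, and the difference between 162 and 18 µg from -0.061 to 1.53 for Cxcl13. The cause was not tested.

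The groups share replicate numbers, and the reported fit did not pair the mice by them. Of 20 pairs of equal number on different slides 10 correlated over 0.1, with r from -0.17 to 0.45 (median 0.11). Of 137 pairs of unequal number on different slides, 30 did (median -0.08). Pairs of equal number were thus more alike by the median, and whether the numbers link the mice was not tested. With a replicate block in place of slide, 2 genes were called at 162 µg (Cxcl12, -0.88, and Ltb, -0.97), Ccl19 was not (0.85, adjusted p = 0.111), and 6 system genes were called.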

Other observations

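Among genes downstream of Ltbr, Nfkb2 and Relb did not pass the test of 18 or 54 µg against the controls. Relb passed the moderated F test over the 4 groups (adjusted p = 0.0289) and Nfkb2 did not (adjusted p = 0.167). Nfkb2, a subunit precursor of the alternative NF-kappa B pathway, went from -1.39 ± 0.19 (SD) in 5 controls to -0.77 ± 0.17 in 6 mice at 18 µg, a difference of 0.64 with a limma adjusted p of 0.0855. Relb, its partner, went from -0.39 ± 0.26 to 0.32 ± 0.21 in the 4 mice with a value at 54 µg, a difference of 0.66 with a limma adjusted p of 0.0544. Tnfrsf1a differed from the controls at 162 µg by 0.53 (adjusted p = 0.0294), below the 1.5-fold minimum, and its second probe by 0.77 (adjusted p = 0.0039), which was called. Outside the system, Chil3, a macrophage chitinase-like protein, was called higher at 18 µg (1.73, adjusted p = 0.0457), and so was Kdr, a receptor of blood endothelium (0.65, adjusted p = 0.0479).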
